A study of Rattus norvegicus with 4 samples.

Results

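The cell cycle and proliferation genes described here are a list of 42 genes in an S-phase group (origin licensing, DNA synthesis and the G1/S switch; 19 genes) and a G2/M group (mitotic entry, spindle, checkpoint and chromosome segregation; 23 genes). A row of the expression files was taken as a member when its gene symbol equalled a name on the list, which gave 41 of the 42 members among 16182 features listed in all 4 libraries. The symbol Cenpe, a kinesin of the kinetochore, was not among the listed symbols. An assembled transcript annotated with the Cenpe protein stood at 1.58 and 1.23 FPKM in the control and bisphenol A (BPA) males and at 2.17 and 1.52 FPKM in the control and BPA females.

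The samples were frontal cortex of newborn Wistar rats (given as Wistar Furth in the study's methods), taken at postnatal day 1 according to the labels and at postnatal day 1 or 2 according to the methods. Dams received 5000 µg BPA per kg maternal body weight each day by oral gavage from gestational day 1 to parturition, and control dams received the vehicle alone over the same period, so the pups were exposed through the dam. Each combination of sex and treatment was represented by 1 RNA-seq library, which are called the control and BPA males and the control and BPA females. The methods describe 3 pups for each combination, drawn from 6 litters, and whether a library pooled pups is not given in the sources used here. The labels name no transgene or deletion in any group.

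Cells copy their genome in S phase and divide it in mitosis, and much of the machinery for each step is made only when it is needed. S-phase genes are switched on by E2F factors when cyclin-dependent kinases release them from the RB family, while G2/M genes are switched on later through CHR and CCAAT promoter elements by MuvB complexes with B-MYB and FOXM1 and by NF-Y. In the newborn rat cortex, production of projection neurons is largely over, and dividing cells are mainly glial progenitors, late neural progenitors and cells of the vessels and meninges. In a bulk sample, fewer dividing cells and less RNA per dividing cell cannot be told apart.

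Values were FPKM, fragments scaled by transcript length and by library size, so levels may be compared between genes. The 4 libraries held an estimated 8950500 to 9254750 fragments, recovered from the steps between low FPKM values, and a member rested on 18 to 852 fragments in a library. Neuronal markers were present in every library: the neuronal tubulin Tubb3 stood between 1552 and 1887 FPKM, and Tbr1, a factor of cortical excitatory neurons, stood between 61.3 and 69.0 FPKM. Markers of meningeal fibroblasts were listed above 0 in every library, although the methods state that the meninges were taken off. Their summed level over 11 genes was 477 FPKM in the control male against 218 FPKM in the BPA male, and 626 FPKM in the control female against 151 FPKM in the BPA female. All 11 were lower in both BPA libraries than in both controls, an order that 31.9% of all features showed. Of the 11, 6 passed limma's threshold, where 0.562% of all features tested did. These were Slc22a6, Col1a1, Col1a2, Dcn, Col3a1 and Igf2 (log2 ratio -1.88, SE 0.129, limma adjusted p 0.0253). None of the 6 passed without the filter on low values or without limma's trend. With a library left out, the log2 ratio of Igf2 ranged from -2.08 to -1.68. Their part in the values given here for the cell cycle genes was not tested.

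The S-phase members were the more abundant group. Their geometric mean was 8.04 FPKM in the control male, 7.61 in the BPA male, 7.90 in the control female and 6.90 in the BPA female, against 4.78, 4.73, 4.80 and 4.32 FPKM for the G2/M members in the same order. Within both groups the BPA library was the lower of each sex, by a small margin in males. Pcna, the clamp that holds DNA polymerase on its template, was the most abundant member at 66.8 FPKM in the control male, 67.4 in the BPA male, 66.2 in the control female and 63.1 in the BPA female, and it made up 26.3% to 27.7% of the summed S-phase level. The spread of Pcna over the 4 libraries was 1.07-fold, and the groups overlapped.

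**Figure D1:**
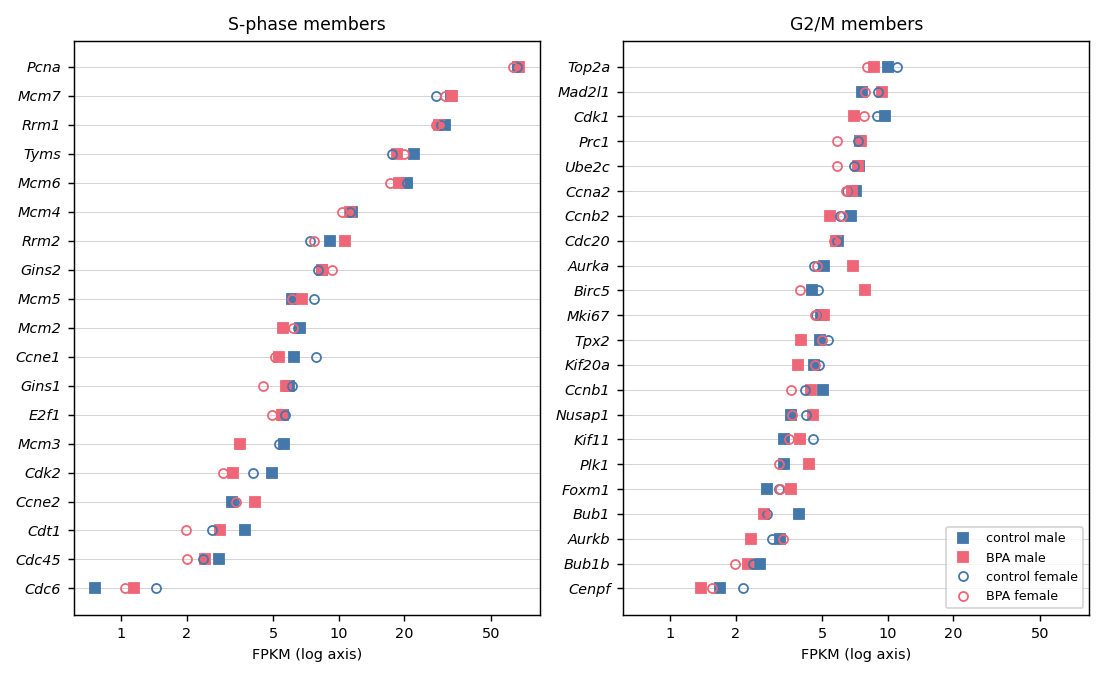
Expression of the 41 members in FPKM (horizontal log axis) in each library, with S-phase members on the left and G2/M members on the right, ordered by mean level. Squares are males, circles are females, blue is control and red is BPA. Each symbol is 1 library, so no error bar is drawn. Levels run from 0.76 FPKM for Cdc6 to 67.4 FPKM for Pcna, and the red symbols of Mcm3, Cdk2 and Top2a lie to the left of both blue ones.

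The DNA helicase that opens the template is a ring of 6 proteins, Mcm2 to Mcm7, and its transcripts were unequal. Mcm7 was the highest of the 6 at 32.8, 33.3, 28.0 and 30.7 FPKM (control and BPA male, then control and BPA female, the order used from here on). Mcm3 was the lowest at 5.58, 3.53, 5.34 and 3.49 FPKM. Both BPA libraries were below both controls for Mcm3, while Mcm7 overlapped. The ratio of Mcm7 to Mcm3 was therefore 5.88 and 5.25 in the control male and female against 9.43 and 8.81 in the BPA male and female. Mcm6 stood at 20.6, 18.9, 20.7 and 17.2 FPKM, lower in both BPA libraries than in both controls. Mcm2 stood at 6.63, 5.53, 6.47 and 6.14 FPKM, also without overlap. Mcm4 stood at 11.48, 11.29, 11.25 and 10.39 FPKM, so that only the BPA female was set apart in this row. An assembled transcript annotated with the Mcm4 protein stood at 2.81, 3.73, 2.81 and 3.91 FPKM. Adding it to Mcm4 took the log2 ratio from -0.07 to 0.0465. Mcm5 stood at 6.09, 6.82, 7.74 and 6.13 FPKM, with the BPA library higher in the male pair and lower in the female pair. The helicase subunits thus held members with a repeated difference, Mcm3 first, and members such as Mcm4, Mcm5 and Mcm7 whose treatments overlapped.

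Licensing and helicase loading factors were scarcer. Cdc6, which loads the Mcm ring on origins together with Cdt1, was the lowest S-phase member at 0.76, 1.15, 1.44 and 1.04 FPKM. Cdt1 stood at 3.72, 2.85, 2.62 and 1.99 FPKM. Cdc45, a partner of the ring once it is active, stood at 2.83, 2.44, 2.38 and 2.0 FPKM. In Cdt1 and Cdc45 the BPA library was the lower of each sex, but the control female lay below the BPA male. The GINS subunits, which complete the active helicase, parted ways: Gins1 stood at 5.90, 5.72, 6.10 and 4.49 FPKM, below both controls in both BPA libraries. Gins2 stood at 8.40, 8.42, 8.04 and 9.33 FPKM, above both controls in both BPA libraries, by 0.02 FPKM in the male pair.

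Enzymes that make deoxynucleotides had no common order of the libraries. Rrm1, the large subunit of ribonucleotide reductase, stood at 30.9, 28.8, 29.4 and 28.1 FPKM, slightly lower in both BPA libraries. Its small subunit Rrm2 stood at 9.08, 10.7, 7.37 and 7.67 FPKM, with the treatments overlapping because both females were low. A separate assembled transcript annotated with the Rrm2 protein stood at 5.10, 5.16, 5.36 and 3.69 FPKM, and adding it to Rrm2 took the log2 ratio from 0.14 to -0.0011. Tyms, which makes thymidylate, stood at 22.1, 18.6, 17.6 and 20.03 FPKM, lower in the BPA library of the males and higher in that of the females.

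The G1/S switch was represented by cyclin E, its kinase and E2f1. Ccne1 (cyclin E1) stood at 6.25, 5.32, 7.83 and 5.08 FPKM, lower in both BPA libraries than in both controls. Ccne2 (cyclin E2) stood at 3.24, 4.14, 3.30 and 3.39 FPKM, higher in both BPA libraries than in both controls. The E-type cyclins were thus ordered oppositely, although the female difference in Ccne2 was only 0.09 FPKM. Cdk2, the kinase that both bind, stood at 4.94, 3.28, 4.03 and 2.95 FPKM, with both BPA libraries below both controls. E2f1, which activates the S-phase genes, stood at 5.57, 5.49, 5.67 and 4.96 FPKM, again without overlap but with a male difference of 0.08 FPKM.

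Among G2/M members, the usual proliferation markers gave different pictures. Mki67, which coats mitotic chromosomes and is widely used to count dividing cells, stood at 4.91, 5.08, 4.69 and 4.61 FPKM, with overlapping treatments and a log2 ratio of 0.01 (SE 0.138). Top2a, the topoisomerase that untangles replicated chromosomes, had the highest mean level of the G2/M members, at 9.99, 8.60, 11.0 and 8.0 FPKM, with both BPA libraries below both controls. Cdk1, the kinase that drives entry into mitosis, stood at 9.72, 6.98, 8.95 and 7.81 FPKM, also lower in both BPA libraries. Mad2l1, a spindle checkpoint protein, stood at 7.60, 9.44, 9.02 and 7.86 FPKM, above Top2a in the BPA male, and overlapped, the male and female pairs having opposite orders.

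Several scarcer G2/M members act at kinetochores or in the spindle checkpoint. Cenpf, a kinetochore protein, was the lowest at 1.70, 1.38, 2.15 and 1.56 FPKM. Bub1b, a checkpoint kinase relative that restrains Cdc20, stood at 2.58, 2.27, 2.41 and 1.98 FPKM. Bub1, the checkpoint kinase, stood at 3.92, 2.70, 2.79 and 2.74 FPKM. Each of the 3 was lower in both BPA libraries than in both controls, Bub1 by only 0.05 FPKM in the female pair, and this order was common in the whole table (31.9% of all features). The checkpoint protein Mad2l1 did not share it, nor did Aurkb, the kinase of the chromosomal passenger complex, at 3.20, 2.36, 2.93 and 3.30 FPKM. Cdc20, the activator of the ubiquitin ligase that ends mitosis, stood at 5.92, 5.77, 5.86 and 5.64 FPKM, without overlap but within 1.05-fold over all libraries.

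The 3 G2/M members with the highest ratios owed them to the male pair. Birc5 (survivin), a subunit of the chromosomal passenger complex, stood at 4.49, 7.87, 4.77 and 3.95 FPKM. Aurka, the kinase of spindle poles, stood at 5.08, 6.94, 4.56 and 4.72 FPKM. The BPA male was the highest library for both, and the other 3 lay close together. Foxm1, a transcription factor of the G2/M genes, stood at 2.79, 3.58, 3.15 and 3.20 FPKM, higher in both BPA libraries than in both controls by 0.05 FPKM in the female pair. An assembled transcript annotated with the Aurka protein stood at 6.43, 7.21, 7.51 and 8.13 FPKM, above the level of Aurka itself in every library, so the split of reads between them is uncertain. Kif11, the motor that separates spindle poles, stood at 3.34, 3.94, 4.53 and 3.53 FPKM, with opposite orders in the male and female pairs. The remaining 9 G2/M members (Prc1, Ube2c, Ccna2, Ccnb2, Tpx2, Kif20a, Ccnb1, Nusap1 and Plk1) lay between 3.17 and 7.56 FPKM, and the treatments overlapped in all 9. The cyclins of mitosis, Ccna2, Ccnb1 and Ccnb2, were among them. An assembled transcript annotated with the Ccnb2 protein stood at 0.01, 2.76, 2.21 and 1.24 FPKM. Adding it to Ccnb2 took the log2 ratio from -0.13 to 0.0587.

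The promoters of the members were searched for words of the regulation that both groups are known for. RefSeq promoters of the rat assembly GRCr8, each 300 bases from 250 before to 50 after the annotated start, were matched for 32 of the 42 members. Both strands were searched for an E2F word (TTCCCGC or TTGGCGC or TTCGCGC or TTGCCGC), a CHR word (TTTGAA or TTCGAA or TTTAAA) and CCAAT, the core that NF-Y binds. No word of 1 kind contains a word of another kind, but CCAAT reads ATTGG on the opposite strand, whose last letters can also begin TTGGCGC. An E2F word was present in 10 of 14 S-phase promoters (71.4%) and 3 of 18 G2/M promoters (16.7%), where 9.52% of all 33469 promoters held it. A CHR word was present in 18 of 18 G2/M promoters and 4 of 14 S-phase promoters (28.6%), where 29.4% of all promoters held it. CHR and CCAAT occurred together in 14 of 18 G2/M promoters (77.8%) and 2 of 14 S-phase promoters (14.3%), where 11.8% of all promoters held both. CCAAT alone did not separate the groups, with 10 of 14 S-phase promoters (71.4%), 14 of 18 G2/M promoters (77.8%) and 37.5% of all promoters.

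**Figure D2:**
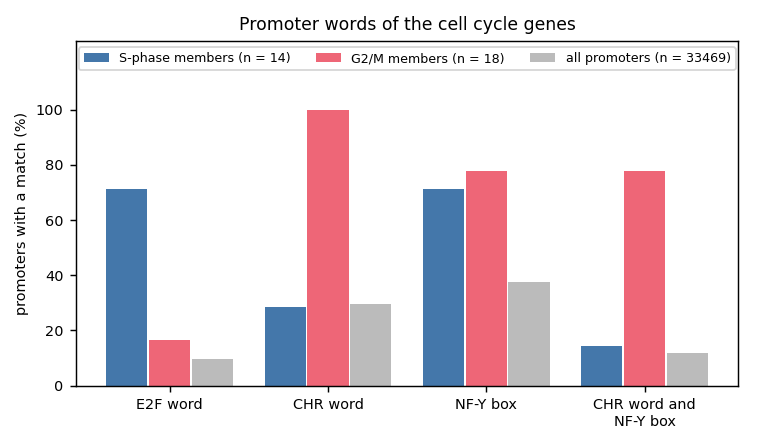
Share of promoters (percent, vertical axis from 0) holding each kind of word on either strand, for 14 S-phase members (blue), 18 G2/M members (red) and all 33469 RefSeq promoters (grey). NF-Y box stands for the CCAAT core. The E2F word is most frequent in S-phase promoters (71.4%) and the CHR word is in all 18 G2/M promoters.

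The promoters of Mcm3, Cdk2, Ccne1, Top2a and Cdk1 are printed because these 5 members had the lowest adjusted p-values in the comparison described next. They show both layouts and a departure from them. Capitals mark the E2F, CHR and CCAAT words, in the reading direction of the gene and on either strand. Mcm3 (GRCr8 chr9:30733697-30733996, minus strand) holds E2F words that begin at positions -6 and 15 from the start and 3 CCAAT cores, and no CHR word. Cdk2 (chr7:1721829-1722128, minus strand) holds 2 E2F words and 1 CCAAT core. Ccne1 (chr1:99927860-99928159, minus strand) departs from the other S-phase promoters shown, with 1 CHR word and neither an E2F word nor a CCAAT core. Top2a (chr10:84473044-84473343, minus strand) holds 2 CHR words and 4 CCAAT cores, and no E2F word. Cdk1 (chr20:19265043-19265342, plus strand) holds 2 words of each of the E2F and CHR kinds and 3 CCAAT cores. A match is a description of the letters and not of binding, and the absence of a word applies to this window only.
Mcm3: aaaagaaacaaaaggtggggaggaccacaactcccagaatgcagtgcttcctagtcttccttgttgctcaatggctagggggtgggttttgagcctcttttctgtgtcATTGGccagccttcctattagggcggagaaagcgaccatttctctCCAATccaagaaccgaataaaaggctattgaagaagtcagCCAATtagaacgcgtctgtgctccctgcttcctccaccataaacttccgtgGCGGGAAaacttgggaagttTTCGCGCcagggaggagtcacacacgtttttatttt
Cdk2: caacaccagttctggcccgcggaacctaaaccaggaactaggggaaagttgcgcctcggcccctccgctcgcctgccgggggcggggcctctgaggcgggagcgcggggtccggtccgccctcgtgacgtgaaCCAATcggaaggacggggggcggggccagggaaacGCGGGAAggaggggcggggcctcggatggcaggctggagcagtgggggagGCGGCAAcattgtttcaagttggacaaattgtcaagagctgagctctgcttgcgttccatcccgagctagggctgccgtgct
Ccne1: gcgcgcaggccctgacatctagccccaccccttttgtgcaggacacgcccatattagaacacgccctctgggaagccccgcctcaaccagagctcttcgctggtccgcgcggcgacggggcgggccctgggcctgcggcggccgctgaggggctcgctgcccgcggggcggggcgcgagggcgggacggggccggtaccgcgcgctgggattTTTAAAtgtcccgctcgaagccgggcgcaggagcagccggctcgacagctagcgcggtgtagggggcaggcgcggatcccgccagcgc
Top2a: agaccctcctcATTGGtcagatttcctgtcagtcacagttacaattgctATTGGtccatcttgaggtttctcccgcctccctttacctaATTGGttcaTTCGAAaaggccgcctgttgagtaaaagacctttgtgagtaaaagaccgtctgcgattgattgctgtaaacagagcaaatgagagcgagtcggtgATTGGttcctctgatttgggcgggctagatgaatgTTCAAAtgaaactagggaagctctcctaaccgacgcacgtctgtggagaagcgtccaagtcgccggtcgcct
Cdk1: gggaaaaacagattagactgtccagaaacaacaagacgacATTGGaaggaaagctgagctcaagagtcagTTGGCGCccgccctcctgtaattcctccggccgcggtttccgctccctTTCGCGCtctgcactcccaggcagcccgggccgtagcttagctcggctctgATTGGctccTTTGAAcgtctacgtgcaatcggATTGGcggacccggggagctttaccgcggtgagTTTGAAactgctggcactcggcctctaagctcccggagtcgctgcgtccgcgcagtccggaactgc

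To ask whether BPA changed these genes, both sexes were combined into 1 group per treatment, and limma was fitted across all 13163 features with a mean of at least 1 FPKM. No member passed the adjusted threshold of 0.05 (0 of 41), where 0.562% of all features tested did (74). Fold changes below are log2 ratios of BPA to control on the log2(FPKM + 0.5) scale, which shrinks the differences of scarce genes. Since the male and the female library stood in as the replicates of a treatment, p-values measure the spread between these 2 libraries.

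The lowest adjusted p-values among the members came from 5 genes that were all lower with BPA. The log2 ratio was -0.57 for Mcm3 (SE 0.140, limma adjusted p 0.142), with the BPA library lower in 2 of 2 sexes. It was -0.32 for Top2a (SE 0.107, limma adjusted p 0.218), again lower in 2 of 2 sexes. For Cdk1 it was -0.32 (SE 0.114, limma adjusted p 0.241). These 3 genes act at different steps, in the replicative helicase, chromosome untangling and mitotic entry. Ccne1 had a log2 ratio of -0.40 (SE 0.147, limma adjusted p 0.252), which was -0.24 without the control female. Cdk2 had a log2 ratio of -0.46 (SE 0.173, limma adjusted p 0.257). Unadjusted limma p-values were under 0.05 for these 5 members, 3 of 19 in the S-phase group and 2 of 22 in the G2/M group, where 17.3% of all features tested were under it in either direction. All 5 were lower with BPA and 0 members under it were higher. The share of members under it was not above that of the whole table.

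The order of the libraries was counted too. Both BPA libraries lay below both controls for 14 of 41 members (8 S-phase and 6 G2/M), where 31.9% of all features showed that order. Both lay above both controls for 3 members (Ccne2, Gins2 and Foxm1), where 18.7% of all features did. The BPA library was lower in both sexes for 22 of 41 members (53.7%), where 40.1% of all features were, and higher in both sexes for 6 members (14.6%), where 25.9% of all features were. These counts describe the list and carry no test.

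Within each sex, 1 library was set against 1, with no replicate check. No member reached an absolute log2 ratio of 1 in males (0 of 41, where 3.08% of all features did) or in females (0 of 41, where 4.09% did). The largest ratio in either direction was that of Birc5 in males (log2 ratio 0.75) and, on the lower side, of Mcm3 in males (-0.59) and Ccne1 in females (-0.58). The estimated fragments give each ratio a 95% exact binomial interval for counting error, which does not cover variation between animals. That interval lay wholly between 0.5 and 2 for 36 of 41 members in males and 35 of 41 in females, so a 2-fold difference between these libraries would have been outside it for most members. It was narrowest for Rrm1 and widest for Cdc6, in both sexes.

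Counting intervals below a ratio of 1 were found for 6 of 41 members in males (Mcm3, Cdk2, Tyms, Top2a, Cdk1 and Bub1), where 21.5% of all features had one, and for 6 of 41 in females (Mcm3, Ccne1, Mcm6, Top2a, Cenpf and Kif11), where 22.6% did. Intervals above 1 were found in males for 3 members (Birc5, Aurka and Mad2l1; 14.0% of all features) and in females for none (0 of 41; 13.7% of all features). Mcm3 and Top2a had the interval below 1 in both sexes, which 10.8% of all features shared. The BPA to control ratio of FPKM for Mcm3 was 0.633 in males (interval 0.483 to 0.826) and 0.654 in females (0.495 to 0.859). For Top2a it was 0.861 in males (0.756 to 0.981) and 0.726 in females (0.636 to 0.827). The replicative helicase subunit and the topoisomerase were thus the only members of the 41 whose difference exceeded counting error in both sexes.

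**Figure D3:**
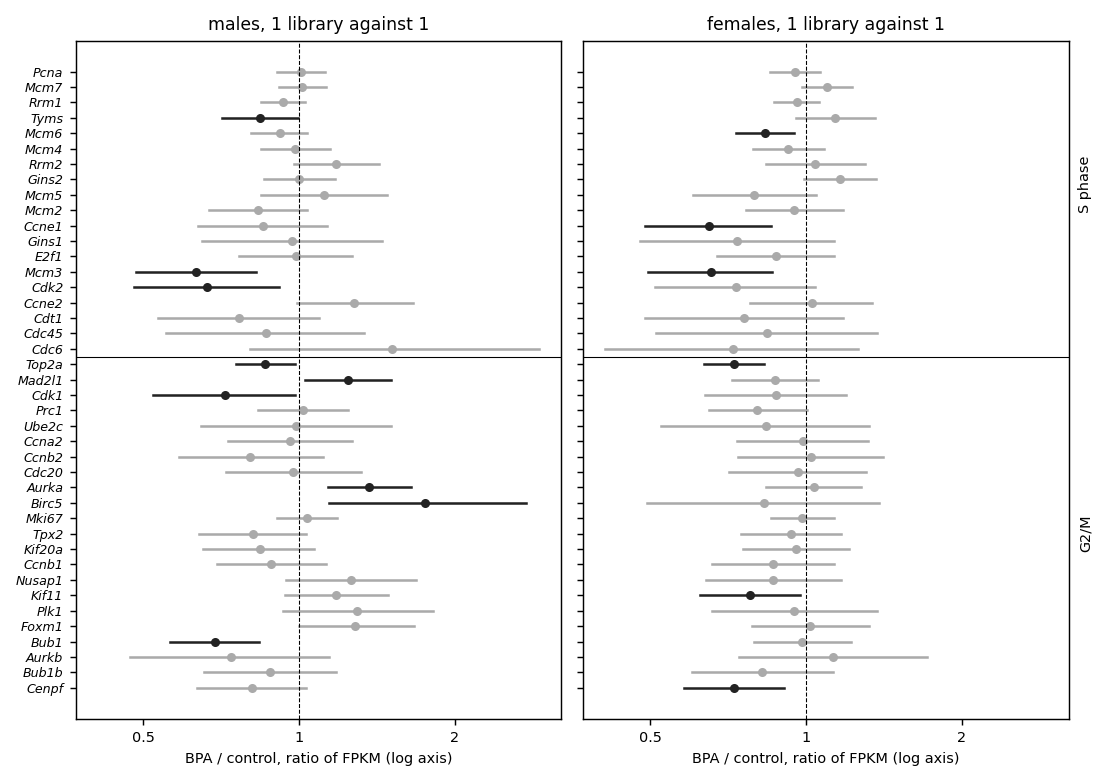
Ratio of FPKM in the BPA library to the control library (horizontal log axis, dashed line at 1) for each of the 41 members, in males on the left and females on the right, with S-phase members above the line and G2/M members below it. Points are ratios of 1 library to 1, and bars are 95% exact binomial intervals for counting error only. Black marks intervals that leave out 1, as for Mcm3 and Top2a in both sexes and for Birc5 (ratio 1.75) in males.

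S-phase and G2/M genes were compared to see whether the cycle shifted as a whole or in part. In males the median log2 ratio was -0.04 for the 19 S-phase members, -0.04 for the 22 G2/M members and -0.04 for all features. In females it was -0.18 for S-phase members and -0.14 for G2/M members, against -0.04 for all features. The members were thus centred with the rest of the table in males and below it in females, and the medians of the S-phase and G2/M groups lay close to each other in each sex. Controls differed between the sexes by a median log2 ratio (female to male) of -0.03 over the 41 members, and BPA libraries by -0.13, so the female shift was about the size of the difference between the BPA female and the BPA male. Over all libraries, the median of the ratios averaged over the sexes was -0.08 for S-phase and -0.12 for G2/M members. With median-of-ratios scaling it was -0.0445 for S-phase members, and with a library left out it ranged from -0.1236 (without the BPA male) to -0.0623. For G2/M members it was -0.0852 with that scaling, and with a library left out it ranged from -0.1145 to -0.0086 (without the BPA female), with -0.0568 without the control male.

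The balance of the groups changed little and depended on the measure. The geometric mean of S-phase over that of G2/M members was 1.68 in the control male, 1.61 in the BPA male, 1.65 in the control female and 1.596 in the BPA female. The ratio of summed levels was 2.20 in the control male, 2.12 in the BPA male, 2.09 in the control female and 2.21 in the BPA female. By geometric means the BPA library was the lower of each sex, and by sums it was lower in males and higher in females.

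The ratios of single members were compared across the sexes. Over the 41 members, Pearson's r between the male and female log2 ratios was 0.16 (0.40 over S-phase and -0.09 over G2/M members), against 0.27 over all features and 0.51 over the 10632 known genes among them, to which all members belong. This is a description across genes of 4 shared libraries, with no test. The difference of the ratios (female minus male) had a counting interval apart from 0 for 6 of 41 members (Birc5, Aurka, Mad2l1, Kif11, Tyms and Bub1), where 22.3% of all features had one. Of these, 5 belong to the G2/M group. The log2 difference was -1.08 for Birc5 (interval -2.0 to -0.16), -0.51 for Mad2l1 and -0.60 for Kif11, and 0.51 for Bub1 and 0.44 for Tyms. With 1 library per sex and treatment, an interaction of sex and treatment cannot be told apart from a difference between single libraries.

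Differences beyond counting error also stood between libraries of the same treatment, though their median size was smaller. In controls, 6 of 41 members had a female to male counting interval apart from 1 (Bub1, Cdc6, Cenpf, Kif11, Mcm7 and Tyms), where 22.1% of all features did. With BPA, 4 of 41 did (Aurka, Birc5, Prc1 and Rrm2), where 25.1% of all features did. The median absolute log2 ratio over the members was 0.22 for BPA against control in males and 0.19 in females, against 0.11 for female against male in controls and 0.14 with BPA. Over all features it was 0.163 and 0.165 between treatments, against 0.117 and 0.129 between sexes, so the same order held for the whole table.

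Other cell cycle genes outside the members were read from the same fit, in which 17.3% of all features had an unadjusted p under 0.05 in either direction, the background for each list that follows. Of 32 further S-phase genes tested, none passed the limma threshold, with 1 higher and 2 lower at an unadjusted p under 0.05, and the median log2 ratio was -0.03 in males and -0.18 in females. The largest ratio among them was that of Gmnn (geminin, the inhibitor of Cdt1), which stood at 8.28, 5.27, 9.49 and 6.45 FPKM (log2 ratio -0.56, SE 0.143, limma adjusted p 0.148). The ratio of Gmnn was -0.43 without the BPA male and -0.47 without the control female, where Cenpu (-1.02 and -0.51) had the largest. Of 39 further G2/M genes, none passed, with 1 higher and 1 lower at an unadjusted p under 0.05, and the medians were -0.08 and -0.09. Pttg1 (securin, the inhibitor of separase) had the largest ratio there at 7.59, 5.75, 5.54 and 2.72 FPKM (log2 ratio -0.64, SE 0.326, limma adjusted p 0.364). That ratio was -1.12 without the BPA male and -0.16 without the BPA female, where Ckap2 (0.55) had the largest. The medians of the further S-phase genes lay close to those of the S-phase members in each sex. Those of the further G2/M genes were nearly equal in males and females, while the G2/M members had -0.04 in males and -0.14 in females.

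Among regulators upstream of this machinery, the largest difference was that of a CDK inhibitor. Of 6 CDK inhibitors tested, none passed the limma threshold, 3 were lower and 0 higher at an unadjusted p under 0.05, and the medians were -0.30 in males and -0.35 in females. Cdkn1c (p57, an inhibitor that helps progenitors leave the cycle) stood at 15.1, 8.85, 16.5 and 6.85 FPKM, with both BPA libraries below both controls. Its log2 ratio was -0.97 (SE 0.138, limma adjusted p 0.0527), and with rows holding an NCBI Gene ID only its limma adjusted p was 0.00365 (4.49% of the 10632 features passed there), in a range of 0.00320 to 0.271 over all alternatives. Of 5 D cyclins and their kinases, 0 passed and 2 were lower at an unadjusted p under 0.05, with medians of -0.19 and -0.23. Ccnd1 (cyclin D1) stood at 8.92, 6.75, 10.2 and 7.39 FPKM (log2 ratio -0.41, SE 0.119, limma adjusted p 0.188), without overlap. Of 11 E2F, RB and DREAM factors, 0 passed and 2 were lower at an unadjusted p under 0.05, with medians of 0.03 and -0.11. The largest ratio was that of Lin37, a MuvB subunit, at 11.9, 8.82, 11.6 and 9.83 FPKM (log2 ratio -0.32, SE 0.101, limma adjusted p 0.210). Lin37 was at -0.30 without the control male and -0.24 without the BPA male, where Rb1 (-0.32 and -0.33) had the largest. Without the control female it was at -0.33, and Tfdp2 (-0.39) had the largest. Of 9 cell cycle exit genes and p53 targets, 0 passed, with 1 higher (Gadd45g, a growth arrest gene) and 3 lower at an unadjusted p under 0.05, and the medians were 0.11 in males and 0.08 in females. Both BPA libraries were above both controls for 4 of the 9, where 18.7% of all features were, and below them for 3, where 31.9% were. Btg2, an antiproliferative gene of neurogenic progenitors, stood at 5.46, 3.90, 5.46 and 2.90 FPKM (log2 ratio -0.62, SE 0.176, limma adjusted p 0.179). Lower values in both BPA libraries thus stood side by side in an inhibitor (Cdkn1c) and an activator (Ccnd1) of the cycle.

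Neural progenitor markers were read beside the cell cycle genes because progenitors divide in this tissue. Of 12 tested, 0 passed the limma threshold and 3 were lower at an unadjusted p under 0.05, with medians of -0.09 in males and -0.32 in females. The glial glutamate transporter Slc1a3, a marker of radial glia and astrocytes, stood at 112, 91.0, 118 and 84.6 FPKM (log2 ratio -0.39, SE 0.064, limma adjusted p 0.0726), and its limma adjusted p ranged from 0.0120, with rows holding an NCBI Gene ID only, to 0.330 over all alternatives. The summed level of the 12 was 982, 855, 1002 and 760 FPKM, with both BPA libraries below both controls. Whether fewer progenitors or other dividing cells underlie any of these values was not tested.

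**Figure D4:**
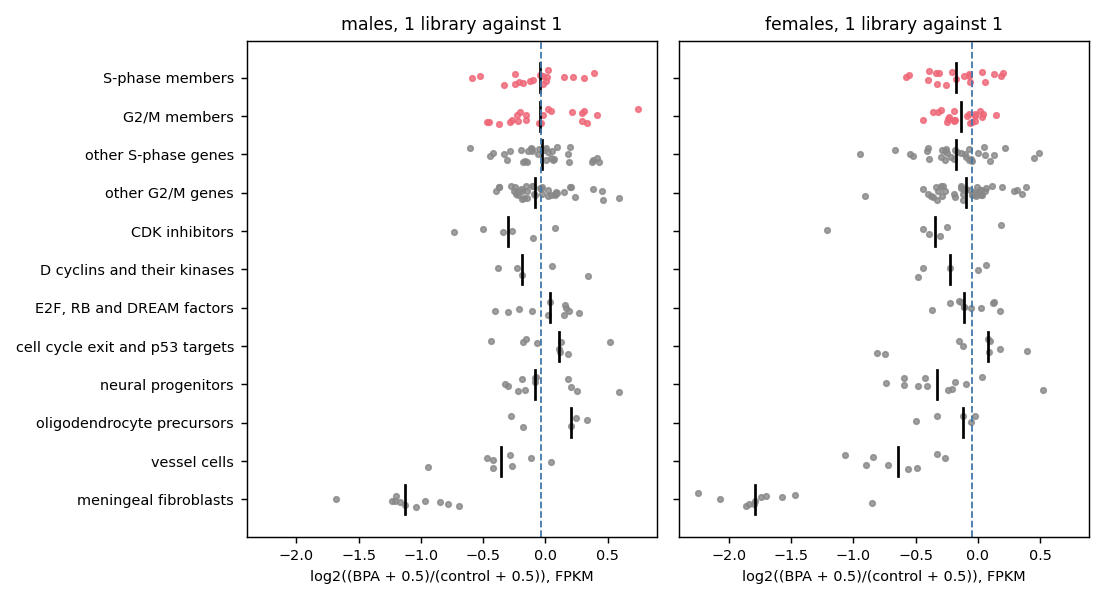
Log2 ratio of BPA to control, log2((BPA + 0.5)/(control + 0.5)) of FPKM, for every tested gene of each list in males (left) and females (right). Points are genes (members in red), black bars are list medians and the dashed blue line is the median of all 13163 features (-0.04). The S-phase and G2/M lists are centred near the dashed line in males, and meningeal fibroblast markers lie far to its left in both sexes (medians -1.13 and -1.79).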

How the data were processed

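The deposited values were FPKM, which the authors calculated with RSEM after Bowtie 2 alignment (genome build Rnor_6.0), per the study's methods. The submitters' processing notes also name HISAT, and versions are not given in the sources used here. Each file also held the transcript length (used for fragment estimates) and FPKM given to 2 decimals, none below 0.01. The fit used 4 libraries: log2(FPKM + 0.5), features with a mean of at least 1 FPKM, treatment as the only term, limma 3.58.1 (R 4.3.3) with a trend and Benjamini-Hochberg adjustment. The study's comparison of counts was not repeated, since the files hold FPKM.

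Relative depth was recovered from the steps of scarce rows: 82.6% to 83.8% of these rows came within 0.1 of whole fragments, where 20% would by chance. This share is too low for a count test, and the fragments served for counting intervals only (95%, exact binomial, with 60 bases taken off each length).

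The fit was tested on simulated data for this comparison, with libraries given a spread of 0.05 (natural log) and no difference between the sexes. Of 200 genes changed 2-fold among 13168, 184 were called, with 7 unchanged genes called. This share does not carry over to the members, because the simulated spread was not matched to these libraries. In the real fit the SE of a member reached 0.345 (Cdc6). Cdkn1c, with a log2 ratio of -0.97 (SE 0.138, limma adjusted p 0.0527), was not called there. Members and gene lists were chosen with earlier results of these data known. Full values were given for members with the highest and lowest levels and ratios, the Mcm subunits, Mki67, Top2a and Pcna. Kif11, Tyms, Mad2l1 and the other members were named after their values were seen. In the other lists, genes past the threshold or, where there were none, the gene with the largest ratio were named, and any other gene of these lists was named after its values were seen. Python 3.11.15 was used for the rest. The alternatives were other pseudocounts, filters, scaling, rows and terms, and each library left out.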

Additional observations from a re-analysis of the deposited data

How the results depend on the processing

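No member was called under any of the 14 alternatives, and the limma adjusted p of Mcm3 ranged from 0.0582 (rows with an NCBI Gene ID only) to 0.419 (a library left out). Over all features, 74 calls became 0 without the filter on low values, 0 without the trend, 164 at a mean of at least 5 FPKM, 477 with NCBI Gene ID rows only, and 439 with those rows and median-of-ratios scaling, a combination chosen after seeing the data. They ranged from 0 to 6 when a library was left out, the lowest without the BPA male or the BPA female. The causes were not tested, beyond the smaller number of features or libraries. With sex as a term (the pairing of the libraries by sex, a replicate block), 86 features and 0 members were called, and no call among the members changed.

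The median log2 ratio of G2/M members ranged from -0.1145 to -0.0086 over the alternatives that left out a library, the latter without the BPA female. The log2 ratio of Ccne1 ranged from -0.55 to -0.24, the latter without the control female. That of Aurka ranged from -0.0257 to 0.49, that of Birc5 from -0.20 to 0.71 and that of Rrm2 from -0.0879 to 0.37 when a library was left out, the lowest each time without the BPA male, and Rrm2 was also at -0.0028 without the control female. Adding the assembled transcript to Rrm2, chosen after seeing the data, gave -0.0011. The same step gave 0.0465 for Mcm4 and 0.0587 for Ccnb2, against -0.07 and -0.13 in the main fit. Over the 41 members, 522 of 556 recomputed ratios kept their direction, and 34 in 19 members did not. With 1 library per sex and treatment, the depth limits scarce members such as Cdc6 most.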

Other observations

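Lists of other cell types were read from the same fit, in which 17.3% of all features had an unadjusted p under 0.05 in either direction. None of the 5 oligodendrocyte precursor markers passed the limma threshold (2 lower at an unadjusted p under 0.05), and their medians were 0.20 in males and -0.12 in females. The ratio averaged over the sexes was above 0 for 3 of the 5 (Sox10, Olig2 and Cspg4). Pdgfra, the receptor that marks these dividing cells, stood at 21.7, 19.1, 24.3 and 17.1 FPKM in the control and BPA male and then the control and BPA female, an order kept for the genes that follow. None of the 8 vessel cell markers passed (5 lower at an unadjusted p under 0.05), with medians of -0.35 in males and -0.64 in females. Acta2, the smooth muscle actin, stood at 5.12, 2.42, 4.88 and 2.39 FPKM. None of the 8 markers of microglia and macrophages passed (3 lower at an unadjusted p under 0.05), with medians of -0.17 and -0.88, and Lyve1, a marker of border macrophages, stood at 4.62, 1.73, 5.48 and 2.03 FPKM. In males 3 of these 8 were higher in the BPA library (Cx3cr1, P2ry12 and C1qb), and the ratio averaged over the sexes was above 0 for Cx3cr1 and C1qb. None of the 4 erythroid genes passed (1 lower at an unadjusted p under 0.05), with medians of -0.17 and -0.39, and Hbb-b1, a beta globin whose reads may be shared with near-identical copies, stood at 84.6, 39.6, 65.4 and 47.5 FPKM.

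Among 10 markers of postmitotic neurons, Neurod2 was called higher with BPA and Slc17a7 lower, where 0.562% of all features tested were called. Both BPA libraries lay above both controls for 5 of the 10, where 18.7% of all features did. They lay below both controls for 1, where 31.9% did. The medians of the list were 0.10 in males and 0.10 in females. Neurod2, a factor of excitatory neurons, stood at 45.8, 62.0, 45.4 and 67.5 FPKM (log2 ratio 0.50, limma adjusted p 0.0481, in a range of 0.00274 to 0.256 over all alternatives). Slc17a7, a vesicular glutamate transporter, stood at 51.1, 30.0, 57.0 and 32.2 FPKM (log2 ratio -0.79, limma adjusted p 0.0274, in a range of 0.000798 to 0.168). None of the 6 genes of the ganglionic eminence and interneurons passed (2 lower at an unadjusted p under 0.05), with medians of -0.0063 in males and -0.20 in females. Dlx1, an interneuron factor, stood at 29.6, 21.7, 29.3 and 23.4 FPKM, while Lhx6, a factor of interneurons named after its values were seen, was above both controls in both BPA libraries at 14.3, 16.4, 13.1 and 15.5 FPKM, as was Gad2.

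With rows holding an NCBI Gene ID only, 4.49% of the 10632 features passed. There 4 of 8 vessel cell markers passed (Kdr, Cdh5, Rgs5 and Acta2), 2 of 8 markers of microglia and macrophages (Mrc1 and Lyve1), 2 of 6 genes of the ganglionic eminence and interneurons (Dlx1 and Gad1) and 1 of 4 erythroid genes (Hbb-b1), all of them lower with BPA.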
